A study of Mus musculus with 24 samples.

Results

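Expression of 10 genes of the NF-κB feedback loop and the interleukin-1 (IL-1) family was followed in mouse pancreatic stellate cells (PSC). The genes were taken by name from the 53801 genes listed in the RNA sequencing data, as a list drawn up with earlier results of these data known, and all 10 were found. They are Nfkbia, Nfkbiz, Tnfaip3, Birc3, Nfkb2, Relb, Il1r1, Il1rl1, Il33 and Il1rn.

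PSC from pooled pancreata of wild-type C57BL/6J mice were grown on a microporous membrane, alone as control or together with KPC cells, a mouse pancreatic cancer cell line. The standard arrangement kept the KPC cells on the floor of the well below the insert, whereas the inverse arrangement placed them on the other face of the PSC's own membrane. Model (standard or inverse), condition (control or co-culture) and time (24 h or 72 h) form 8 groups of 3 RNA libraries from the PSC side. Libraries were made from 450 ng of RNA in the standard and 120 ng in the inverse model. In the inverse model KPC cells were already attached when PSC were seeded, and time was counted from 24 h after that seeding. Inverse PSC had thus been beside KPC cells for 24 h more than the stated time, whereas standard co-culture began when counting began. Standard PSC and their controls were seeded in another medium, which was changed at that point, and inverse PSC were in the final medium from seeding. These differences and the arrangement of the cells cannot be told apart. The labels number the libraries of each group 1 to 3 and do not say what a number stands for, so that p-values measure the spread between these libraries.

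NF-κB is a family of dimeric transcription factors that inhibitor proteins hold in the cytoplasm until a signal, such as IL-1 or TNF, leads to degradation of the inhibitor. Active NF-κB then induces genes that act back on the pathway, some of which switch it off again. Nfkbia encodes IκBα, the inhibitor that removes NF-κB from the nucleus; Tnfaip3 encodes A20, an enzyme that edits ubiquitin chains and stops signalling below the receptors; Birc3 encodes cIAP2, a ubiquitin ligase of the TNF receptor complex; and Nfkbiz encodes IκBζ, a nuclear protein needed for a second wave of targets such as Il6. Nfkb2 and Relb encode p100 and RelB, the subunits of the non-canonical pathway. IL-1 signals through the receptor encoded by Il1r1, the product of Il1rn blocks this receptor, and Il33 encodes an alarmin of the same family that is read by the receptor ST2, the product of Il1rl1. In pancreatic cancer, IL-1 and NF-κB are known for driving stellate cells towards an inflammatory fibroblast state.

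Since NF-κB induces its own inhibitors, the promoters were read for its element. RefSeq start sites of the build GRCm38.p6 were at hand for 8 of the 10 genes, and the 250 bases before each start were searched on both strands for the consensus κB site, the 10-base element that NF-κB binds. Of 32851 windows of this length, 2382 (7.25%) held a match, and among the 16 windows of the 8 genes 6 did, from 4 genes (Nfkbia, Nfkb2, Tnfaip3 and Il1r1). The stretch just before a start is shown for 3 feedback genes with matches near the start, in capitals, and for Il33 and Il1rn, whose differences between co-culture and control were the largest in 3 of the 4 comparisons and whose windows held none. Overlapping matches in Nfkb2 form 1 run of capitals.
Nfkbia, chr12:55492648-55492772, minus strand: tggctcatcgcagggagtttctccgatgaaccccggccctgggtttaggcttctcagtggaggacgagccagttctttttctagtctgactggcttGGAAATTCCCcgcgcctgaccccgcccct
Tnfaip3, chr10:19015411-19015535, minus strand: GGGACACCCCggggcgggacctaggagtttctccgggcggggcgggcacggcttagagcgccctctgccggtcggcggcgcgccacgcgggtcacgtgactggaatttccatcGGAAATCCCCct
Nfkb2, chr19:46304612-46304736, plus strand: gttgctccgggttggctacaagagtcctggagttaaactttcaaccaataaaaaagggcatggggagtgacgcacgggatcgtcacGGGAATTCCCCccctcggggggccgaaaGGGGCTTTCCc
Il33, chr19:29924988-29925112, plus strand: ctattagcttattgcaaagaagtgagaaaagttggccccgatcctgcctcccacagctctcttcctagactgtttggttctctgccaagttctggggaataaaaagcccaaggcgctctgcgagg
Il1rn, chr2:24336735-24336859, plus strand: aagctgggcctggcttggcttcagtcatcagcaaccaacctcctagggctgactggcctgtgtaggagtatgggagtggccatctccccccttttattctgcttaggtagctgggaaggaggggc
The match in Nfkbia began 29 bases before the start, those in Nfkb2 39, 38 and 11 bases and those in Tnfaip3 125 and 12 bases before it. A match is a run of letters and not a measured binding site, and none were measured here.

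Between 15932733 and 24798758 fragments per library were counted on genes (median 18860268). The stellate label held for the matrix and mesenchymal markers, since 10 of 11 were above 1 FPKM (fragments per kilobase of transcript, scaled to the library's total) in every library, while Gfap stayed at or below 0.24 FPKM. Libraries numbered 2 of the standard model stood apart. All 12 macrophage markers, from Ptprc to Mrc1, were higher in each of these 4 libraries than in any of the other 20, with summed levels of 429 to 1424 FPKM against 41.7 to 193 FPKM in the other standard libraries and 27.6 to 265 FPKM in the inverse ones. In such bulk samples, more macrophages and more RNA per macrophage cannot be told apart. Epithelial markers summed to at most 2.41 FPKM in all standard libraries and inverse controls, but to 43.2 FPKM in inverse co-culture at 24 h, replicate 2, to 6.78 FPKM in its replicate 3 and to 1.5 to 8.17 FPKM in inverse co-culture at 72 h. Markers of mast cells, neutrophils and endothelium each summed to at most 8.57 FPKM, with Mcpt4, Tpsb2 and Ly6g at 0 in every library, and those of T and innate lymphoid cells to 1.26 to 28.9 FPKM. Of the latter, Trac alone reached 27.2 FPKM, while Cd3e and Cd3g stayed at or below 0.092 FPKM.

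**Figure D1:**
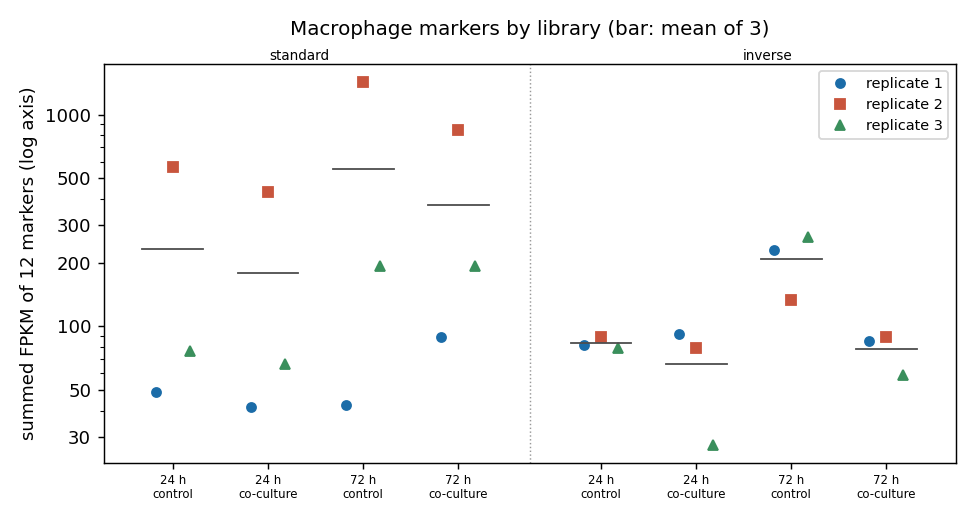
Summed FPKM of 12 macrophage markers (log axis) in each library of the 8 groups. Symbols give the replicate number and bars the mean of 3. Replicate 2 of the standard model lies at 429 to 1424 FPKM in all 4 groups, above every other library.

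Levels of the 10 genes spanned a wide range per unit of length. Il1r1 had the highest median over the 24 libraries (97.4 FPKM), followed by Nfkbia (36.1 FPKM), Nfkb2 (20.7 FPKM), Nfkbiz (19.3 FPKM), Relb (14.6 FPKM), Il33 (13.5 FPKM), Birc3 (11.99 FPKM), Il1rn (3.92 FPKM), Tnfaip3 (2.37 FPKM) and Il1rl1 (0.81 FPKM). Only Il1rl1 was below 1 FPKM in most libraries (above it in 8 of 24, with 2 to 175 counted fragments). The ranges over libraries of neighbours in this order overlapped. Compared within libraries, Nfkbia was above Nfkb2 in each of the 24. All other neighbours changed order between libraries, so that their order was not resolved. The genes of the agonists of the IL-1 receptor were close to 0, with at most 0.76 FPKM for Il1a and 0.93 FPKM for Il1b in any library (both genes were looked up after values of the others were seen). The libraries are from the PSC side, so that agonists made by KPC cells were not measured.

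In standard co-culture at 24 h, 3 of 9 genes tested were higher than in control when libraries of the same number were compared. They were genes of the IL-1 axis, namely the antagonist gene Il1rn, the alarmin gene Il33 and the receptor gene Il1r1. That paired comparison called 1.22% of all genes at 24 h and 0.661% as higher. At 72 h it called 0 of 9 and 0.00777% of all genes. The paired change from 24 h to 72 h passed for 0% of all genes, so that the times were not shown to differ. Without that pairing, 0 of 9 genes tested passed at 24 h and at 72 h, as for 0% of all genes by limma, and 1 (Il1rn) and 2 (Il1rn and Il1r1) of the 9 had an unadjusted p under 0.05, against 2.89% and 6.22% of all genes. Same-numbered libraries of the standard model deviated together from their group means in every pair, so that the numbers pair the libraries there.

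Il1rn, on chromosome 2 (24336853 to 24351494), was at 0.30, 4.67 and 0.88 FPKM in the control libraries 1, 2 and 3 of the standard arrangement at 24 h, beside 5.39, 13.5 and 5.19 FPKM in co-culture. At 72 h the values were 1.05, 6.06 and 1.42 FPKM in control and 7.25, 9.98 and 5.96 FPKM in co-culture. Co-culture was higher in 6 of 6 same-numbered pairs and the groups did not overlap at 24 h (1 of 9 genes tested, against 3.35% of all genes with co-culture higher), whereas at 72 h replicate 2 of the control (6.06 FPKM) lay just above the lowest co-culture value (5.96 FPKM). The log2 difference was 2.12 ± 0.74 (SE of limma's fit, as for all differences given here) at 24 h and 1.58 ± 0.56 at 72 h. Blocked by replicate number, the 24 h difference passed (2.12 ± 0.29, adjusted p = 0.0293 by limma) and the 72 h difference did not (1.58 ± 0.34, adjusted p = 0.316). Macrophages also express Il1rn. Their marker sum in the 24 h pairs was 48.9 against 41.7, 567 against 429 and 76.5 against 66.3 FPKM in control and co-culture. At 72 h that sum was 42.4 against 88.9 FPKM in pair 1, 1424 against 842 FPKM in pair 2 and 193 against 193 FPKM in pair 3. The part of macrophages in the Il1rn values was not tested.

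Il33, on chromosome 19 (29925114 to 29960718), was at 0.23, 14.2 and 5.69 FPKM in the 24 h controls and 2.56, 27.3 and 19.8 FPKM in standard co-culture. At 72 h it was at 0.44, 37.3 and 12.7 FPKM in control and 7.09, 31.8 and 49.8 FPKM in co-culture. The gene was nearly silent in both controls numbered 1 and well expressed in those numbered 2 and 3, so that the groups overlapped at both times although 5 of 6 pairs were higher in co-culture. The exception was pair 2 at 72 h. The log2 difference was 1.56 ± 1.31 at 24 h and 1.57 ± 1.41 at 72 h, and with the block 1.56 ± 0.23 (adjusted p = 0.0356 by limma) and 1.57 ± 0.60 (adjusted p = 0.448).

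Il1r1, on chromosome 1 (40225080 to 40317257), was at 46.3, 79.0 and 72.6 FPKM in control at 24 h and at 68.8, 121 and 113 FPKM in standard co-culture. The 72 h values were 61.1, 100 and 81.7 FPKM in control and 107, 125 and 146 FPKM in co-culture. All 3 co-culture libraries at 72 h were above all 3 controls (1 of 9 genes, against 3.36% of all genes), and 6 of 6 pairs were higher. The 3 differences within pairs at 24 h were close to each other (0.57, 0.62 and 0.64 on the log2 scale). The log2 difference was 0.61 ± 0.30 at 24 h and 0.65 ± 0.21 at 72 h, with the block 0.61 ± 0.07 (adjusted p = 0.0233 by limma) and 0.65 ± 0.15 (adjusted p = 0.324).

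Il1rl1, also on chromosome 1 (40429570 to 40465415), was at 0.87, 0.18 and 0.13 FPKM in control at 24 h and 2.78, 1.36 and 0.92 FPKM in standard co-culture. At 72 h it was at 0.34, 0.86 and 0.49 FPKM in control and 1.81, 0.75 and 0.70 FPKM in co-culture. It failed the filter on low values in either comparison and passed it over the 12 standard libraries, where 5 of 6 pairs were higher in co-culture.

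Averaged over both times, a comparison added after the values were seen, the blocked fit called 3 of the 10 genes, Il1rn (1.85 ± 0.24, adjusted p = 0.0062 by limma), Il1r1 (0.63 ± 0.09, adjusted p = 0.0069) and Il33 (1.57 ± 0.34, adjusted p = 0.035). It called 3.98% of all genes tested and 1.71% as higher. Without the block 0 of 10 genes passed, where 0.117% of all genes did (3 of 10 at an unadjusted p under 0.05, against 9.49%). The blocked fit at 24 h, which called the same 3 genes among 9 tested, called 1.22% of all genes and 0.661% as higher, and that at 72 h called 0 of 9 and 0.00777% of all genes. Without the libraries numbered 2, in which the macrophage markers were high, the averaged differences were 2.25 ± 0.23 for Il1rn, 0.71 ± 0.09 for Il1r1 and 2.18 ± 0.21 for Il33 (adjusted p = 0.0292, 0.0375 and 0.0292 by limma). Without those numbered 3, none of the 3 passed (adjusted p = 0.188, 0.213 and 0.365), and without those numbered 1 Il33 did not (1.08 ± 0.32, adjusted p = 0.0852). At 24 h alone and without the libraries numbered 2, Il33 and Il1r1 passed in the blocked fit, while Il1rn was below the filter. On counted fragments with voom and the block, Il1r1 was called at 24 h, Il1rn was not (adjusted p = 0.0517 by limma) and Il33 was not (adjusted p = 0.29). The shares of all genes called with a number left out or with voom are not given, so these calls are not set against all genes. The part of macrophages in these differences was not tested. Il1rap, the co-receptor that IL-1 and IL-33 receptors share, had a difference of 0.52 ± 0.08 in the averaged blocked fit (adjusted p = 0.00876 by limma) and was the 1 gene called among 7 tested of the other IL-1 family ligands and receptors. It was chosen after its values were seen.

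**Figure D2:**
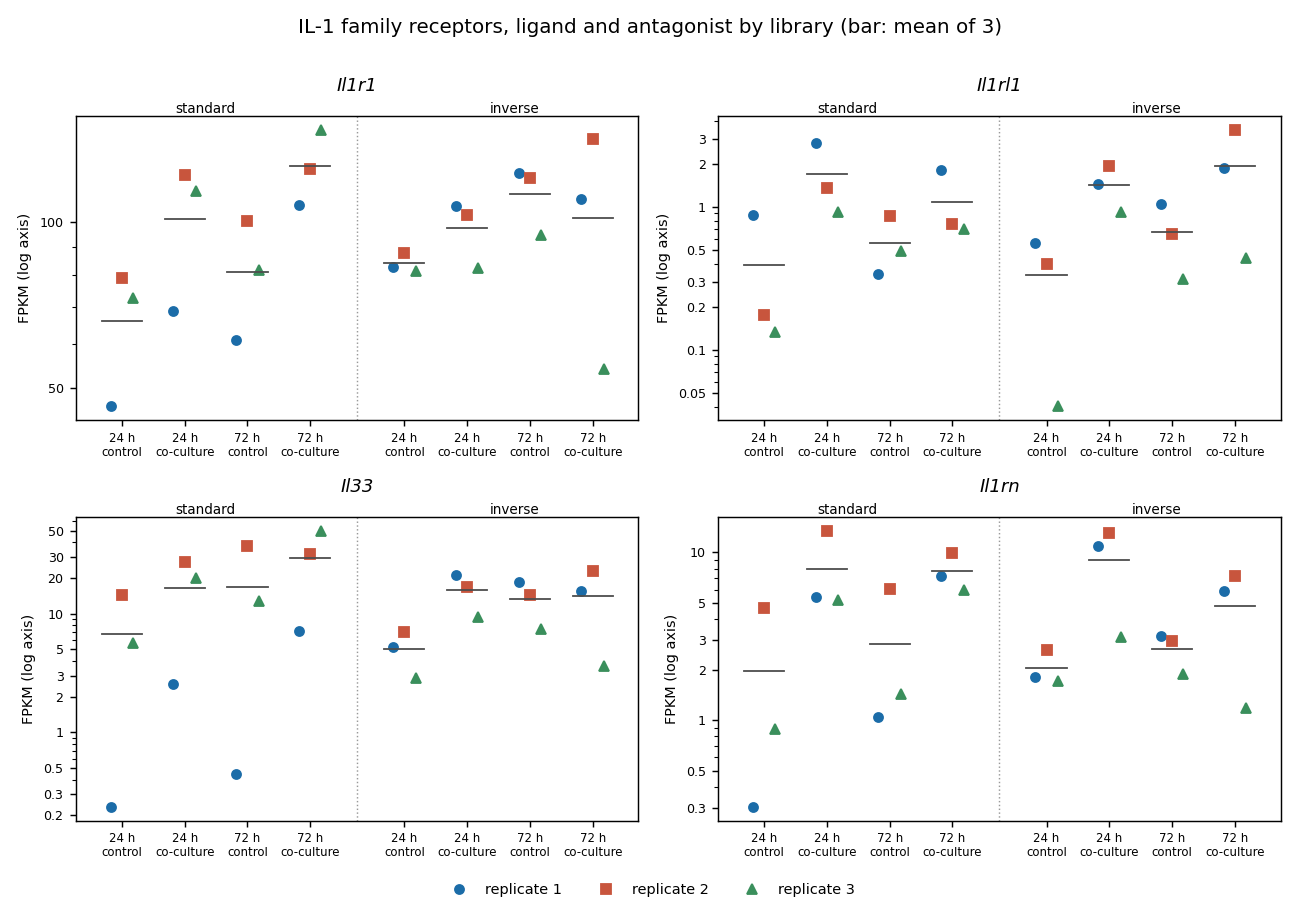
FPKM (log axis) of Il1r1, Il1rl1, Il33 and Il1rn in each library of the 8 groups, with symbols for the replicate number and bars for the mean of 3. In the standard model the co-culture symbols lie above the control symbols of the same number in 6 of 6 pairs for Il1rn and Il1r1.

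**Figure D3:**
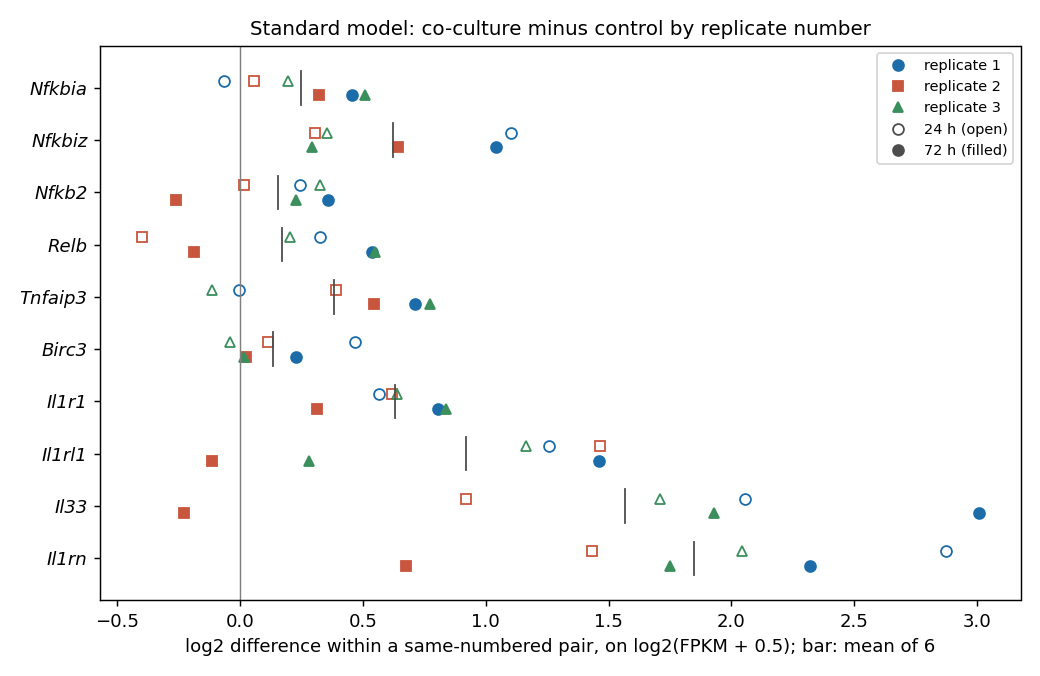
Log2 difference (log2(FPKM + 0.5), co-culture minus control) within each same-numbered pair of the standard model for the 10 genes, open symbols for 24 h and filled for 72 h, with a bar for the mean of 6. Il1rn, Il1r1 and Nfkbiz lie above 0 in all 6 pairs, and Relb lies below 0 in both pairs numbered 2.

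Nfkbia, Tnfaip3, Nfkbiz and Birc3 of the standard model differed more between replicate numbers than between control and co-culture. So did Il33 (3.73 between the number means against an averaged co-culture difference of 1.57 on the log2 scale), Relb (1.06 against 0.17) and Nfkb2 (0.40 against 0.15). The medians over all genes were 0.40 and 0.14. The first value is the largest minus the smallest of 3 means, which tends to exceed 1 mean difference. Nfkbia, on chromosome 12 (55489410 to 55492647), was at 29.1, 97.7 and 36.0 FPKM in control at 24 h, at 27.8, 102 and 41.3 FPKM in co-culture at 24 h, at 22.6, 83.1 and 62.9 FPKM in control at 72 h and at 31.1, 104 and 89.7 FPKM in co-culture at 72 h. Replicate 2 was the highest and replicate 1 the lowest library in each of the 4 groups. The co-culture difference was 0.06 ± 0.62 at 24 h and 0.43 ± 0.62 at 72 h on the log2 scale, against a mean difference of 1.79 between libraries numbered 2 and 1.

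Tnfaip3, on chromosome 10 (19000910 to 19015657), showed the same order more widely. Its controls were at 1.08, 11.3 and 2.34 FPKM at 24 h and at 1.08, 8.75 and 4.38 FPKM at 72 h, and co-culture was at 1.07, 14.96 and 2.13 FPKM and at 2.09, 12.99 and 7.84 FPKM. The mean difference between numbers 2 and 1 was 2.78 on the log2 scale, and the co-culture difference was 0.09 ± 1.07 at 24 h and 0.68 ± 0.82 at 72 h. All 3 pairs at 72 h were higher in co-culture, by 0.71, 0.54 and 0.77, which did not pass with the block (0.68 ± 0.17, adjusted p = 0.335 by limma).

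Nfkbiz, on chromosome 16 (55811375 to 55838899), was at 1.58 FPKM in control replicate 1 at 24 h, beside 32.5 and 16.5 FPKM in replicates 2 and 3. Co-culture at 24 h was at 3.96, 40.2 and 21.2 FPKM, and at 72 h control was at 6.05, 29.2 and 26.8 FPKM and co-culture at 12.998, 45.9 and 32.9 FPKM. Every pair was higher in co-culture (6 of 6, as for 5.1% of all genes; Il1r1 and Il1rn were the others of the 10), with differences of 0.59 ± 1.23 at 24 h and 0.66 ± 0.70 at 72 h, and with the block 0.59 ± 0.18 and 0.66 ± 0.18 (adjusted p = 0.188 and 0.356 by limma).

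Birc3, on chromosome 9 (7848699 to 7873186), was at 7.02 to 10.2 FPKM in libraries numbered 1, at 18.4 to 22.2 FPKM in those numbered 2 and at 13.3 to 16.95 FPKM in those numbered 3. Its co-culture differences were 0.18 ± 0.45 and 0.09 ± 0.35 at 24 h and 72 h, the smallest of these 4 genes at 72 h.

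Of the subunit genes, Relb varied about as much as Birc3 between the means of the numbers (1.06 and 1.12 on the log2 scale), and Nfkb2 varied less (0.40). Relb, on chromosome 7 (19606217 to 19629438), was at 7.97 to 13.5 FPKM in libraries numbered 1, 20.6 to 27.8 FPKM in those numbered 2 and 14.2 to 25.8 FPKM in those numbered 3, with co-culture differences of 0.04 ± 0.36 and 0.30 ± 0.45. Both pairs numbered 2 were lower in co-culture (log2 differences of -0.40 and -0.19). Nfkb2, on chromosome 19 (46304320 to 46312385), had the narrowest range, from 15.9 to 27.7 FPKM over the standard libraries, and differences of 0.20 ± 0.18 and 0.11 ± 0.22.

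Of the 10 genes, 7 were lowest in number 1 in all 4 standard groups (18.2% of all genes), 5 were highest in number 2 (6.48%) and 4, namely Nfkbia, Nfkbiz, Tnfaip3 and Birc3, met both conditions (3.67%). The span between the means of the 3 numbers had a median of 1.37 over the 10 genes and of 0.40 over all genes on the log2 scale. The averaged co-culture difference had a median size of 0.50 over the 10 genes and 0.14 over all genes. Libraries numbered 2 were those with the high macrophage markers. Of the 11 stellate markers, ranges in each number were read for Acta2, Pdgfra and Col3a1 only. Acta2, the smooth muscle actin of myofibroblasts, was at 1194 to 5963 FPKM in number 1, against 476 to 824 FPKM in number 2 and 895 to 1509 FPKM in number 3. Pdgfra was at 92.4 to 340 FPKM against 385 to 475 and 318 to 429 FPKM, and Col3a1 at 2790 to 13975.5 FPKM against 14136 to 20531 and 11546 to 19200 FPKM. For each of them the ranges of numbers 1 and 3 overlapped, and those of numbers 1 and 2 did not. The other stellate markers did not all go the same way in number 2. Pdgfrb was at 126 to 144 FPKM there and Vim at 706 to 814 FPKM. In all other libraries of both models they were at 132 to 194 and 715 to 1994 FPKM. Dcn was on the higher side, at 776 to 1269 against 145 to 999 FPKM. Mesothelial markers, mainly Wt1, summed to 13.4 to 24.6 FPKM in number 1, 41.3 to 49.3 FPKM in number 2 and 33.8 to 39.2 FPKM in number 3. Of these 7 markers, 1 was above 1 FPKM in each library numbered 1, 4 to 5 in those numbered 2 and 3 to 4 in those numbered 3. The part of macrophages, mesothelial cells or the stellate state in the order of the feedback genes was not tested.

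**Figure D4:**
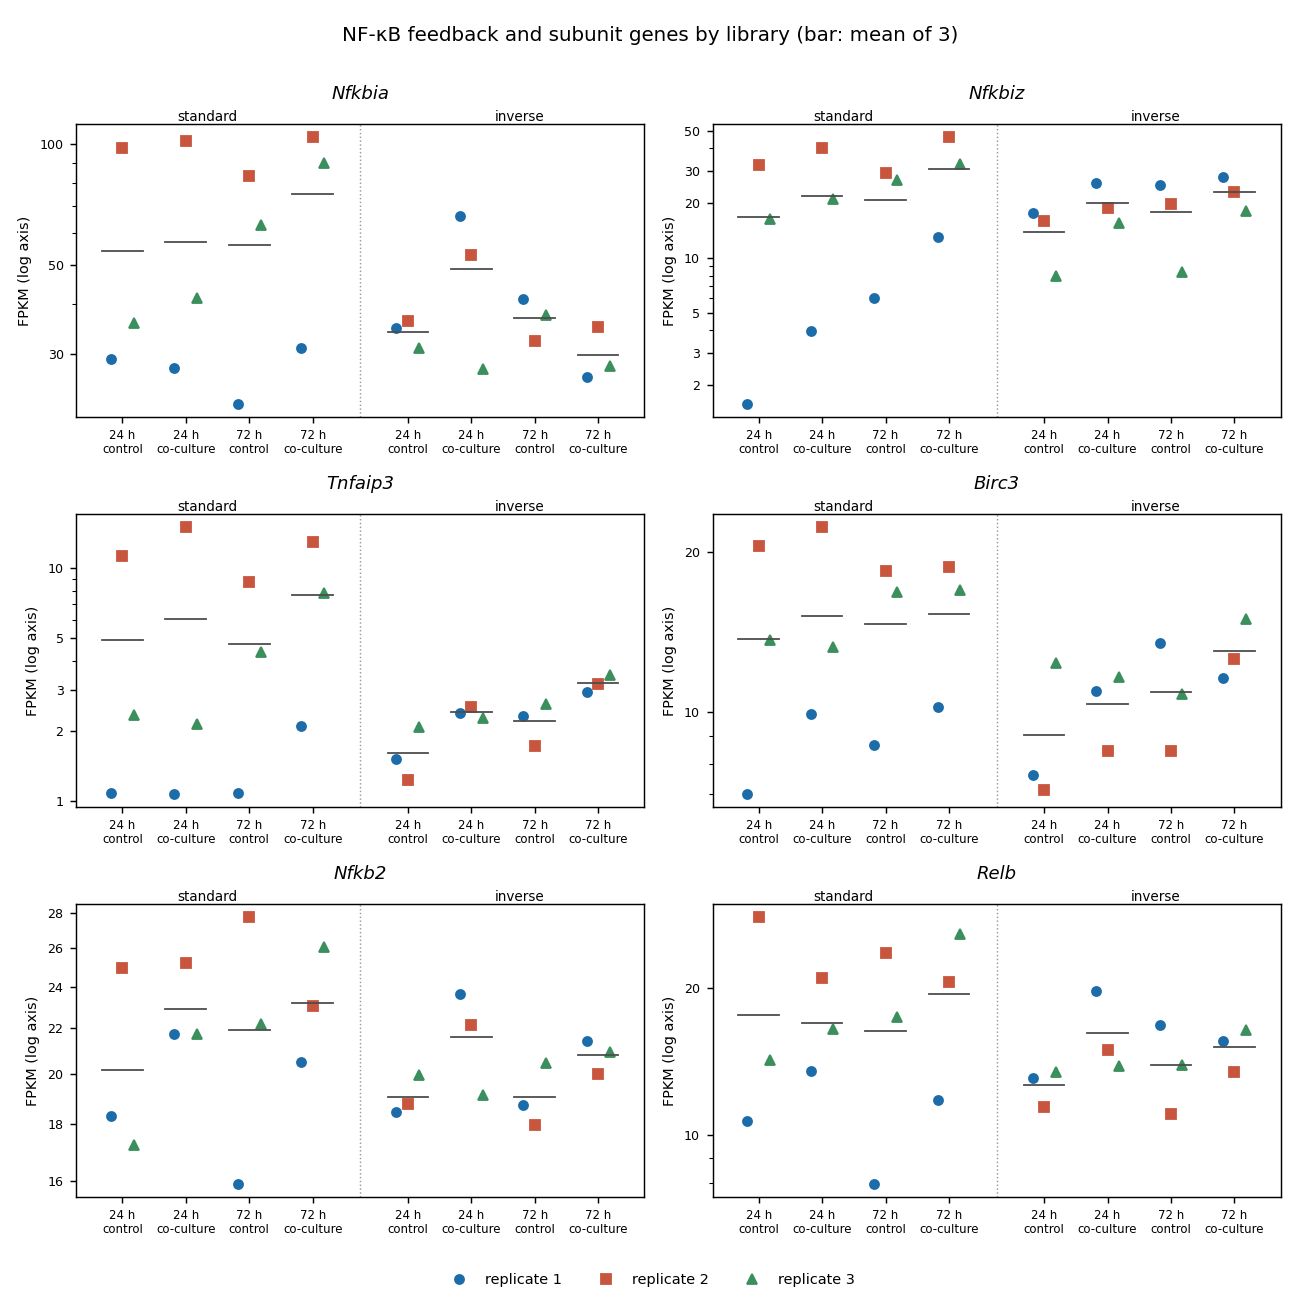
FPKM (log axis) of the feedback genes Nfkbia, Nfkbiz, Tnfaip3 and Birc3 and the subunit genes Nfkb2 and Relb in each library of the 8 groups, with symbols for the replicate number and bars for the mean of 3. In the standard model replicate 1 is lowest and replicate 2 highest in all 4 groups for these 4 feedback genes, an order that the inverse model lacks.

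In inverse co-culture at 24 h all 9 genes tested were on the higher side, led by Il1rn and Il33, but none passed the threshold, where 2.47% of all genes did (2 of 9, Il33 and Il1rn, at an unadjusted p under 0.05 by limma, against 14.8%). Il33 was at 5.22, 7.02 and 2.88 FPKM in control and at 21.2, 16.6 and 9.43 FPKM in co-culture, and Il1rn at 1.82, 2.62 and 1.71 FPKM in control and 10.96, 13.1 and 3.13 FPKM in co-culture. Every co-culture library was above every control for both. The log2 difference was 1.55 ± 0.35 for Il33 (adjusted p = 0.0566 by limma) and 1.71 ± 0.45 for Il1rn (adjusted p = 0.0974). Il33 passed after scaling by the median of gene ratios (1.61, adjusted p = 0.0444 by limma) and on counted fragments (1.64, adjusted p = 0.0246). Without co-culture replicate 2, the library with the most epithelial markers, the differences were 1.48 and 1.36 and none of the genes passed. Without co-culture replicate 3, Il33 (1.87), Il1rn (2.31) and Nfkbia (0.79) passed (adjusted p = 0.0142, 0.00325 and 0.0154 by limma). None of these 3 passed without any 1 of the other libraries (adjusted p of 0.0896 or more by limma). The share of all genes called in these reduced fits is not given.

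The groups also did not overlap for Tnfaip3 (1.51, 1.23 and 2.08 FPKM in control, 2.39, 2.53 and 2.28 FPKM in co-culture) and Relb (13.1, 11.4 and 13.5 FPKM in control, 19.7, 14.9 and 13.9 FPKM in co-culture). In all, the co-culture values of 4 of the 9 genes were above all controls, as for 7.38% of all genes. Differences were 0.48 ± 0.24 for Tnfaip3 and 0.33 ± 0.16 for Relb. Nfkbia was at 34.9, 36.3 and 31.1 FPKM in control and 66.1, 53.0 and 27.5 FPKM in co-culture, so that replicate 3 of co-culture lay below all controls and the difference was 0.43 ± 0.27. That library was the lowest of its group for Il33, Il1rn and Il1r1 too, and its macrophage markers summed to 27.6 FPKM, the lowest of the 24 libraries. Nfkbiz was at 17.6, 16.0 and 8.0 FPKM in control and 25.9, 18.8 and 15.5 FPKM in co-culture (0.56 ± 0.29), Il1r1 at 82.8, 87.8 and 81.5 FPKM and 107, 103 and 82.4 FPKM (0.20 ± 0.12), and Birc3 and Nfkb2 differed by 0.21 ± 0.22 and 0.17 ± 0.12. Il1rl1, below the filter, was at 0.56, 0.40 and 0.04 FPKM in control and 1.45, 1.93 and 0.91 FPKM in co-culture.

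In inverse co-culture at 72 h, where 12.8% of all genes passed, 0 of the 10 genes did (0 with an unadjusted p under 0.05 by limma, against 32.2% of all genes). Il33 was at 18.4, 14.3 and 7.39 FPKM in control and 15.4, 22.8 and 3.59 FPKM in co-culture (-0.18 ± 0.62), and Il1r1 at 122, 120 and 94.5 FPKM in control and 110, 141 and 54.1 FPKM in co-culture (-0.24 ± 0.32). Il1rn was at 3.16, 2.98 and 1.88 FPKM in control and 5.86, 7.25 and 1.18 FPKM in co-culture (0.48 ± 0.55), and Il1rl1 at 1.05, 0.64 and 0.32 FPKM in control and 1.88, 3.44 and 0.44 FPKM in co-culture (0.87 ± 0.55). In replicate 3 of co-culture these 4 genes were at the bottom of their group, and without it Il1rn passed (1.17, adjusted p = 0.0278 by limma). Without any 1 of the other libraries Il1rn did not pass (adjusted p of 0.60 to 0.94 by limma). The share of all genes called in these fits is not given.

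Tnfaip3 was at 2.32, 1.72 and 2.59 FPKM in the inverse control and 2.93, 3.16 and 3.49 FPKM in co-culture at 72 h, the 1 gene of the 10 without overlap between the groups (9.53% of all genes, co-culture higher), with a difference of 0.46 ± 0.22. Averaged over both times, again a comparison added later, Tnfaip3 was the 1 gene called (0.47 ± 0.15, adjusted p = 0.0473 by limma), where 19.2% of all genes were called and 5.04% as higher. The share of 1 of 10 called was below that of all genes called. That of 1 of 10 without overlap at 72 h was close to that of all genes. Tnfaip3 passed without 24 h control replicate 3. Without any other of the 12 libraries its adjusted p lay between 0.0569 and 0.107 (limma), with differences of 0.40 to 0.54 over all 12. Nfkbia was at 41.2, 32.3 and 37.5 FPKM in control and 26.3, 35.1 and 28.0 FPKM in co-culture, a difference of -0.31 ± 0.15. Nfkbiz, Birc3, Relb and Nfkb2 differed by 0.47 ± 0.37, 0.26 ± 0.19, 0.13 ± 0.17 and 0.12 ± 0.11. At 72 h the median of all genes lay at -0.16 and moved to -0.01 with median-ratio scaling, which changed the called genes from 427 higher (3.27%) and 1251 lower to 746 higher and 686 lower; the signs of the 10 genes stayed the same. Macrophage markers summed to 134 to 265 FPKM in the controls and 59.1 to 88.9 FPKM in co-culture at 72 h, without overlap, and their part in these values was not tested.

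**Figure D5:**
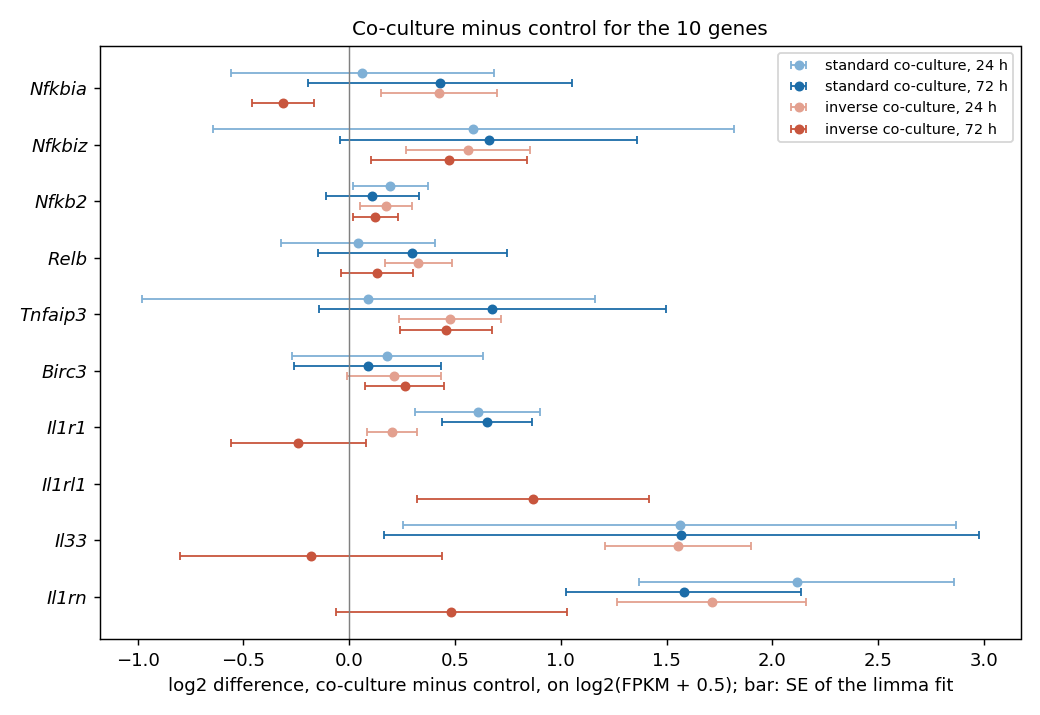
Log2 difference between co-culture and control on log2(FPKM + 0.5) for the 10 genes in the 4 comparisons, with the SE of limma's fit without the replicate number. Il1rl1 was tested in 1 comparison. Il33 and Il1rn lie highest in 3 comparisons, while at 72 h in the inverse model Il33 lies at -0.18.

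Over the genes tested, the median log2 difference of the 10 genes was 0.20 (24 h) and 0.65 (72 h) in the standard and 0.43 and 0.20 in the inverse model, beside medians of all genes of -0.01, -0.09, -0.06 and -0.16.

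The difference between the models was tested directly and passed for none of the 10 genes at either time, nor for any other gene (0 of 14452; at an unadjusted p under 0.05 by limma 0 and 1 of the 10 genes at 24 h and 72 h, against 1.26% and 3.47% of all genes). The gene of the 10 with the smallest p was Il1r1 at both times, with a co-culture difference lower in the inverse model by -0.41 ± 0.41 at 24 h and -0.89 ± 0.41 at 72 h (adjusted p = 1 and 0.997). The change of the co-culture difference from 24 h to 72 h also passed for none of the 10 genes and 0% of all genes in either model (0 of 10 in the standard and 1 of 10 in the inverse model at an unadjusted p under 0.05 by limma, against 1.03% and 10.7% of all genes). In the inverse model it was -1.73 ± 0.79 for Il33 (adjusted p = 0.464 by limma) and -0.74 ± 0.35 for Nfkbia (adjusted p = 0.473).

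Some of the 10 genes differed with time in the inverse controls, at a share close to that of all genes. In inverse control PSC, Il33 rose from 5.22, 7.02 and 2.88 FPKM at 24 h to 18.4, 14.3 and 7.39 FPKM at 72 h (1.31 ± 0.36, adjusted p = 0.0369 by limma), and Il1r1 from 82.8, 87.8 and 81.5 FPKM to 122, 120 and 94.5 FPKM (0.41 ± 0.11, adjusted p = 0.0374). These were 2 of 9 genes tested, where 19.2% of all genes passed and 10.2% were higher. Il1r1 did not pass with median-ratio scaling (adjusted p = 0.0559 by limma), and neither gene passed in the fit over all 24 libraries. Il1r1 passed without 72 h control replicate 3 and without none of the other 5 libraries, and Il33 without that library or 24 h control replicate 2 (adjusted p = 0.0149 and 0.0449 by limma) and without none of the other 4 (0.0765 to 0.105). Macrophage markers moved alongside, from 79.3 to 88.6 FPKM at 24 h to 134 to 265 FPKM at 72 h, and their part was not tested. In standard controls 0 of 9 genes and 0% of all genes passed (0 of 9 at an unadjusted p under 0.05 by limma, against 0.98%). With the block, the difference for Il33 was 0.94 ± 0.23 (adjusted p = 0.4 by limma).

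Other genes of the pathway were read from lists chosen with earlier results of these data known. Among NF-κB target genes, 8 of 25 tested were called in inverse co-culture at 24 h, all higher, where 1.08% of all genes were. The matrix metalloproteinase gene Mmp3 rose from 12.7 ± 4.84 to 72.7 ± 12.4 FPKM (SD, n = 3; adjusted p = 0.0052 by limma). On the log2 scale Mmp3 was higher by 2.54 ± 0.28, the chemokine genes Cxcl5 and Ccl2 by 2.40 ± 0.44 and 1.59 ± 0.24 and the lipocalin gene Lcn2 by 1.35 ± 0.29. Epithelial markers summed to 1.92 to 43.2 FPKM in these co-culture libraries and to 0.37 to 0.59 FPKM in their controls. The part of KPC cells in the target gene values was not tested. The median of the target list was 0.49 and that of all genes -0.06. At 72 h, 5 of 27 were higher, against 3.27% of all genes, and 2 lower, against 9.57%, with Il6, the cytokine gene that depends on IκBζ, at 1.70 ± 0.45 (36.98 ± 21.997 FPKM in control and 107 ± 26.8 FPKM in co-culture, SD, n = 3; adjusted p = 0.0482 by limma), Mmp3 at 1.51 ± 0.39, the cytokine gene Lif at 1.31 ± 0.34 and the metalloreductase gene Steap4 at -2.31 ± 0.47.

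Among the subunits and inhibitors outside the 10 genes, Bcl3, a nuclear relative of IκBα, was the 1 of 8 tested that passed at 24 h (0.70 ± 0.15) and the 1 of 9 at 72 h (0.67 ± 0.13). Of all genes, 2.47% passed at 24 h and 12.8% at 72 h, so that the share at 72 h was no higher than that of all genes. At 24 h Bcl3 did not pass with median-ratio scaling. Zc3h12a, which encodes a nuclease that degrades cytokine messages, was the 1 of 17 negative regulators called at 72 h (1.18 ± 0.21), a share below the 12.8% of all genes called. At 24 h 0 of 17 passed, and the difference between the times was not tested. Of 28 kinases and adaptors 2 were lower at 72 h, Ikbkg, the regulatory subunit of the IκB kinase, by -0.54 ± 0.13 and Map3k8 by -0.78 ± 0.21. This share was no higher than the 9.57% of all genes called lower, and with median-ratio scaling neither passed. Among TNF receptors and ligands, Tnfrsf12a was higher at 72 h (0.79 ± 0.16, 1 of 10, against 3.27% of all genes called higher). Tnfrsf11b was lower at 24 h (-1.10 ± 0.22, 1 of 11, against 1.39% of all genes called lower) and did not pass with median-ratio scaling. None of 7 other IL-1 family genes passed at either time in the inverse model, where their median difference at 24 h was 0.38. In the standard model without the block none of these lists held a called gene at 24 h or 72 h, as for all genes. In the averaged blocked fit 4 of 30 target genes were higher, against 1.71% of all genes, and 1 lower, against 2.27%.

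Genes with the most similar course over the 8 group means were sought for the 6 genes whose group means spanned at least 1 on the log2 scale, by the root mean square difference of centred log2 values among 14452 genes. For Nfkbiz these were Rab20 (0.09), the collagen gene Col3a1 (0.12) and Bcl3 (0.14). The nearest to Tnfaip3 were Clec7a, a receptor of myeloid cells (0.17), Myl3 (0.17) and Gch1 (0.20), and to Nfkbia Gm44008 (0.10), Serpina3f (0.13) and Atp8b4 (0.14), none above 3.21 FPKM in any library. Il1rl1 was nearest to B4galt5 (0.16), Plat (0.19) and the growth factor gene Fgf2 (0.20). Il33 was nearest to Gda (0.24), Gm49251 (0.29) and Gm36107 (0.30), and Il1rn to Mgp (0.24), Olr1 (0.32) and Fabp7 (0.32). These are descriptions over 8 means that share libraries and total depth.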

How the data were processed

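The authors had reads filtered, aligned with HISAT2 2.0.5 to GRCm38.p6 and counted with featureCounts 1.5.0-p3 in default mode, which disregards strand, and deposited a table of FPKM values (53801 genes, 24 libraries), which are relative to each library's total. DESeq2 1.20.0, used by the authors for their own tests, was not used here. FPKM values were whole multiples of 1 fragment for 94.3% of the expressed genes (within 0.05 fragments) when each gene's length was taken as the mean of its transcripts in GENCODE M21, so that fragments and library totals could be recovered; levels between genes depend on that length, and antisense overlap cannot be told apart. Coordinates are from GENCODE M21 (GRCm38).

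Differences were tested two-sided with limma 3.58.1 (intensity trend) in R 4.3.3 on log2(FPKM + 0.5), which understates changes of low genes, over all genes above 1 FPKM in at least 3 libraries of the fit, with Benjamini-Hochberg adjustment over all of them and a threshold of 0.05. "Passed" and "called" refer to it. Each co-culture was fitted with its own control; differences between models used all 24 libraries and those between times the 12 of a model. The script was tested on simulated data. Same-numbered libraries of the standard model correlated in their deviations from the group means in every pair (0.296 to 0.797), and in the inverse model they did not (-0.140 to 0.177), so that the block is given beside standard results only. The 10 genes and all lists were chosen with earlier results of these data known. From the other lists, at most 4 called genes with the largest difference in the inverse model per time are named, and for genes spanning at least 1 over the group means, the 3 of most similar course. Promoter sequences are RefSeq's (GRCm38.p6); no window was at hand for Nfkbiz and Relb.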

Additional observations from a re-analysis of the deposited data

How the results depend on the processing

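Without the replicate block none of the 10 genes passed in any standard comparison, with or without each library. The number of the 10 genes called in standard co-culture at 24 h moved from 0 to 3 with the replicate block, 3 with median-ratio scaling and the block, 1 with voom on recovered fragments and the block and 1 with all 24 libraries and the block, and with the block it was 3, 2 and 2 without the libraries numbered 1, 2 and 3. At 72 h it moved from 0 to 1 with all 24 libraries and the block. Averaged over both times it moved from 0 to 3 with the block, with voom and the block and with median-ratio scaling and the block, to 4 with all 24 libraries and the block, and with the block to 2 and 3 without the libraries numbered 1 and 2. Over time in standard controls it moved from 0 to 1 with the block and without number 1. With the block, 157 of all 12859 genes tested were called at 24 h and 545 of 13694 averaged over both times. Shares of all genes under the other settings with the block are not given, so that those counts are not set against all genes.

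In inverse co-culture at 24 h the number moved from 0 to 1 with a filter on mean FPKM above 5, median-ratio scaling, quantile normalization, the replicate block, voom, median-ratio scaling with the block and all 24 libraries with the block, and to 2 with voom and the block. Averaged over both times it moved from 1 to 0 with no filter, with a mean FPKM above 5, which removes Tnfaip3, and with all 24 libraries, and to 3 (median-ratio scaling), 5 (quantile normalization), 4 (block), 2 (voom), 5 (voom and block), 7 (median-ratio scaling and block) and 2 (all 24 libraries and block). Over time in inverse controls it moved from 2 to 0 with no filter, no intensity trend, all 24 libraries and all 24 libraries with the block, and to 1 with median-ratio scaling. The numbers do not pair the inverse libraries, so the block is given here only; 1 to 2 of 3 libraries correlated best with their own number. Counts of all genes called moved as well. With median-ratio scaling 324 of all 12827 genes were called in inverse co-culture at 24 h (317 in the main fit). Averaged over both times 2164 of 13722 were called (2640 in the main fit), and in inverse controls over time 2697 of 13092 (2516). Shares under the other settings are not given, so that those counts are not set against all genes. The causes were not tested. Alternatives with the libraries of 1 number left out, and the averaged comparisons, were chosen after seeing the data.

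Leaving out each library gave 0 to 3 genes called in inverse co-culture at 24 h, 0 to 1 at 72 h, 0 to 3 averaged, 0 to 1 for the change over time and 0 to 2 in inverse controls over time. Shares of all genes called in these reduced fits are not given.

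Differences near 0 changed sign. With the block, at 24 h in the standard model, Nfkbia was at -0.0046 without number 3, Relb at -0.098 and -0.039 without numbers 1 and 3 and Tnfaip3 at -0.059 without number 2, and Nfkb2 at 72 h at -0.016 without number 1. With voom and the block Relb was at -0.0095 at 24 h, and with quantile normalization Il33 at 0.00079 in the inverse model at 72 h. Leaving out each library gave, in the standard model at 24 h, ranges of -0.46 to 0.59 (Nfkbia), -0.58 to 1.498 (Nfkbiz), -0.25 to 0.42 (Relb), -0.88 to 0.92 (Tnfaip3) and -0.22 to 0.52 (Birc3). At 72 h they were -0.12 to 0.97 (Nfkbia), -0.047 to 1.17 (Nfkbiz), -0.10 to 0.29 (Nfkb2), -0.13 to 0.62 (Relb), -0.020 to 1.35 (Tnfaip3) and -0.24 to 0.35 (Birc3). In the inverse model at 72 h they were -0.018 to 0.27 (Relb), -0.53 to 0.16 (Il1r1) and -0.69 to 0.56 (Il33), and for Il33 in standard controls over time -0.29 to 2.46. Of 693 differences recomputed under other settings 631 kept direction and side of the threshold, 42 passed only there, 13 no longer passed and 7 changed sign. Il1rl1 rests on 2 to 175 fragments per library, which limits its precision.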
